A study of Homo sapiens with 32 samples.

Results

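The comparison concerned the pair of short hairpin RNAs (shRNAs) used to lower ERH, shERH_1 and shERH_2, each transfected into the same 8 clones of 293T cells. It used the 16 libraries carrying either of them, out of 32 small RNA libraries in all, chosen by their labels, and paired within each clone. The other 16 libraries carried control_shRNA_1 or control_shRNA_2, which target no transcript by design, and gave each ERH shRNA its own control. The question was which miRNA changes were shared by both ERH shRNAs and which followed only 1 of them.

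The 293T line derives from human embryonic kidney and expresses the large T antigen of SV40. The 4 clones numbered 52, 55, 57 and 67 were labelled WT, and the 4 clones 30, 34, 42 and 43 had been prime edited to lack the ERH-binding segment at the DGCR8 N-terminus and are called deletion clones here. Every culture, the controls included, was transiently transfected, kept in puromycin and sorted on day 5 for the fluorescent protein encoded by the vector. Each replicate was therefore 1 clone. The p-values set the mean within-clone difference between vectors, or its difference between genotypes, against the variation of that difference from clone to clone. With 1 library per clone and vector, that variation includes any from transfection, sorting and library preparation. The table held no mRNA, so neither ERH depletion nor the DGCR8 edit was checked, and the depth of knockdown reached by each shRNA is not known.

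DGCR8 and the nuclease DROSHA make up the Microprocessor, the complex that releases miRNA hairpins from primary transcripts. ERH is a small nuclear protein that binds DGCR8 and is known for helping hairpins of poor structure that lie beside a good hairpin on the same transcript, such as mir-15a beside mir-16. An shRNA can also act on unintended transcripts through its own seed, which is why the same target is usually tested with more than 1 shRNA.

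Values were counts per row, where a row was a hairpin name with both arms and all loci of that name together, and the levels given are counts scaled for library size (CPM, with TMM factors). Mature sequences of the miRNAs on which the results turned came from RefSeq (GRCh38.p14), written 5′ to 3′ with the seed, bases 2 to 8, in capitals. The first set is shown because these miRNAs had the lower unadjusted p-values between the ERH shRNAs, in all clones or in wild-type clones, and the second because its members changed with both or sit beside such a member as a seed relative.
hsa-miR-7-5p: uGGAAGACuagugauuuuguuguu
hsa-miR-1246: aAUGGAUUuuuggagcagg
hsa-miR-1290: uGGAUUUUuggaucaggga
hsa-miR-642a-5p: gUCCCUCUccaaaugugucuug
hsa-miR-192-5p: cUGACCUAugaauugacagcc
hsa-miR-215-5p: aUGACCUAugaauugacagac
hsa-miR-15a-5p: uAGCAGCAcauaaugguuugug
hsa-miR-15b-5p: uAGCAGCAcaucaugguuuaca
hsa-miR-16-5p: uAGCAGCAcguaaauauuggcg
hsa-miR-212-3p: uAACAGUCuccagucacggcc
hsa-miR-132-3p: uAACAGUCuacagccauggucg
hsa-miR-34a-5p: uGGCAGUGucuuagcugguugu
hsa-miR-449a: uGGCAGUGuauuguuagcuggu
hsa-miR-449c-5p: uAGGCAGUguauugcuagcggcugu
The seed AGCAGCA is common to miR-15a, miR-15b and miR-16, UGACCUA to miR-192 and miR-215, AACAGUC to miR-212 and miR-132, and GGCAGUG to miR-34a and miR-449a. The seed of miR-449c-5p is the same motif displaced by 1 base.

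The 16 ERH shRNA libraries held 1318923 to 6222790 miRNA counts, with a median of 2131312, and the control libraries 1789085 to 2818603. An ERH shRNA library detected 696 to 884 of the 1513 miRNA rows. The shERH_2 library of clone 57 (6222790 counts) and the shERH_1 library of clone 67 (4324633) were deeper than the others of their groups. Of miRNAs known for tissue origin, all 6 of a kidney list (mir-192, mir-194, mir-204, mir-10a, mir-10b and mir-196a) averaged at least 10 CPM, and their summed level was 25237 to 62257 CPM with shERH_1 and 24117 to 61975 with shERH_2. Of the 5 epithelial miRNAs of the mir-200 group, 2 reached 10 CPM, and the sum was 94.4 to 218 CPM with shERH_1 and 86.8 to 217 with shERH_2. Among the lists for other tissues, 2 of 5 blood, 2 of 4 muscle, 2 of 2 neuronal, 1 of 1 liver and 1 of 1 endothelial miRNAs reached 10 CPM, and none was at 0 in all libraries. The summed ranges of both shRNAs overlapped in all 7 lists.

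Between shERH_2 and shERH_1, no miRNA passed the test. edgeR's quasi-likelihood test with the clone as a block called 0 of 578 rows (0%) at a Benjamini-Hochberg adjusted p under 0.05, and the smallest adjusted p was 0.125. At an unadjusted p under 0.05 it listed 37 rows (6.4%). DESeq2 called 1 row, mir-7. Only 8 rows had 1 sign across all 8 clones (1.38%). The comparison of control_shRNA_2 with control_shRNA_1, measured the same way, also gave 0 of 571 calls (0%) by edgeR and 1 by DESeq2, with 48 rows at an unadjusted p under 0.05 (8.41%) and 17 with the same sign in all clones (2.98%). A change of ERH shRNA thus listed no more miRNAs than a change of control shRNA; the difference between these counts was not tested.

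**Figure D1:**
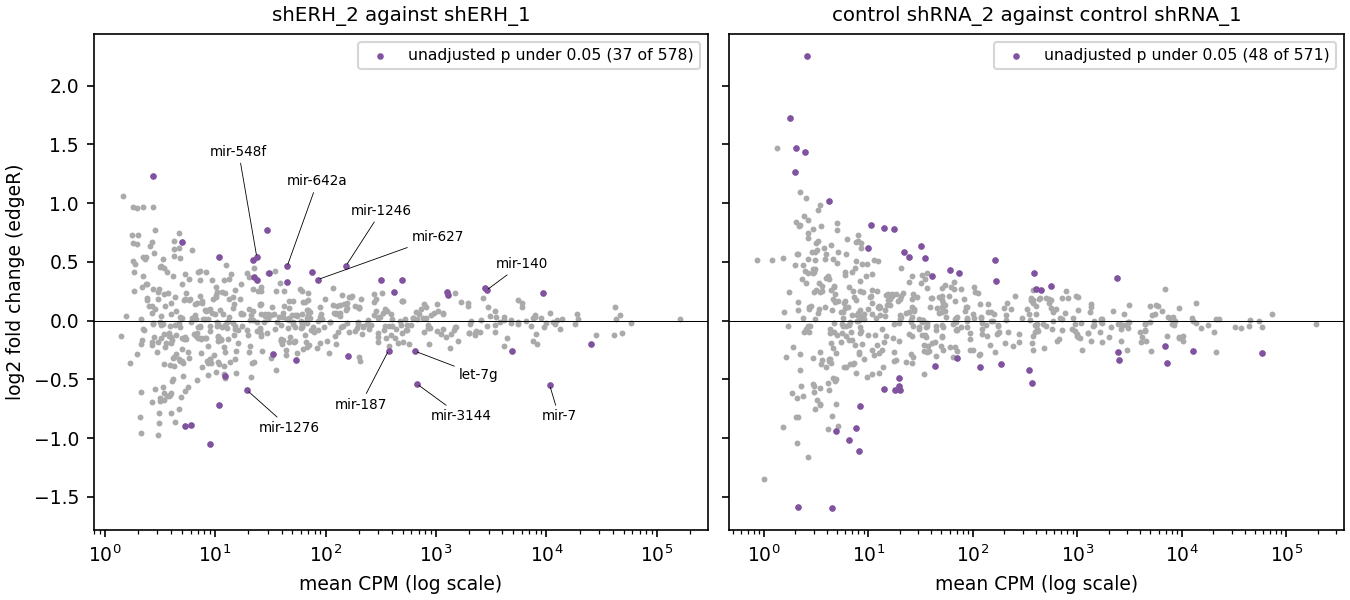
Log2 fold change from edgeR (vertical) against mean CPM of the libraries compared (horizontal, log scale), 1 point per miRNA row, for shERH_2 against shERH_1 (left, 578 rows) and control_shRNA_2 against control_shRNA_1 (right, 571 rows). Purple points have an unadjusted p under 0.05, 37 on the left and 48 on the right, none passed after adjustment, and both clouds widen toward low CPM.

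A test that calls nothing does not show that both shRNAs act alike, so the intervals of the differences are given. The median log2 fold change was -0.01 and the median standard error 0.18. The 95% interval lay within 2-fold in either direction for 444 of 578 rows (76.8%), and within 1.5-fold for 296 (51.2%). Precision rose with abundance. Of the 194 rows averaging at least 100 CPM, all 194 were bounded within 2-fold and 184 (94.8%) within 1.5-fold. Of the 190 rows between 10 and 100 CPM, 183 (96.3%) were bounded within 2-fold and 109 (57.4%) within 1.5-fold. Of the 194 rows under 10 CPM, 67 (34.5%) were bounded within 2-fold and 3 within 1.5-fold, and the interval of the others reached past 2-fold. The estimate itself exceeded 2-fold for 3 rows, all under 10 CPM.

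The miRNA nearest to a difference was mir-7, lower with shERH_2 than with shERH_1 in 7 of 8 clones. MiR-7 is known as a restrainer of growth factor signalling and is abundant in neuroendocrine cells. Its row gathers several loci, of which MIR7-3 lies on chromosome 19 from 4770670 to 4770779 in an intron of MIR7-3HG. In the wild-type clones 52, 55, 57 and 67 the level with shERH_1 was 7961, 12998, 9393 and 17747 CPM, and with shERH_2 3871, 7137, 6355 and 14492 CPM. In the deletion clones 30, 34, 42 and 43 it was 14730.5, 19672, 8354 and 10699.7 CPM with shERH_1 and 8074, 11692, 8599.8 and 9649 CPM with shERH_2. Within clones only clone 42 was not lower, and across clones the ranges of both shRNAs overlapped. The log2 fold change of mir-7 was -0.55 ± 0.12 (SE; 95% interval -0.80 to -0.31; edgeR adjusted p = 0.125). It passed in 4 of 16 analyses of this comparison, with adjusted p between 4.91e-04 and 0.997 over all of them: DESeq2 (adjusted p = 0.00479), total miRNA scaling (0.0264), no filter (4.91e-04) and without clone 42 (0.00733).

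Against its own control, mir-7 rose with shERH_1, by 1.20 ± 0.27 (SE, edgeR adjusted p = 0.00278), and was higher in 7 of 8 clones. With shERH_2 the log2 difference from control was 0.37 ± 0.23 (SE, edgeR adjusted p = 0.275), higher in 5 of 8. The control levels ran from 2379 to 2981 CPM with control_shRNA_1 and 2985 to 5297 with control_shRNA_2 in wild-type clones, and from 6722 to 12636 and 7238 to 14230.1 CPM in deletion clones. The wild-type clones thus started lower, and all 4 of them were above their own control with either ERH shRNA except clone 52 with shERH_2. The difference between the knockdown effects of both shRNAs on mir-7, tested over all 32 libraries, was -0.80 ± 0.35 (SE, 95% interval -1.52 to -0.09, edgeR adjusted p = 0.579).

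The other rows named on the lower side were mir-3144, mir-1276, let-7g and mir-187, none of which passed. The row mir-3144 (chromosome 6, 120015179 to 120015257, outside annotated host genes) had 311 to 1162 CPM with shERH_1 (median 872) and 83.9 to 891 with shERH_2 (median 678), and was lower with shERH_2 in 7 of 8 clones, at a log2 fold change of -0.54 ± 0.15 (SE, edgeR adjusted p = 0.404). Clone 67 held the most negative difference, -1.88. The row mir-1276, in an intron of KLHL25, had a median of 20.6 CPM with shERH_1 and 15.3 with shERH_2, a log2 fold change of -0.59 ± 0.21 (SE). let-7g, a member of the let-7 family of differentiation-linked miRNAs in an intron of WDR82, had medians of 719 and 623 CPM, and a log2 fold change of -0.26 ± 0.10 (SE). The row mir-187 had medians of 354 and 241 CPM and was lower in all 8 clones, with the same fold change of -0.26 ± 0.10 (SE).

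On the higher side stood mir-642a, mir-1246, mir-627, mir-140 and mir-548f, again without passing. The row mir-642a (chromosome 19, 45674928 to 45675024, in an intron of GIPR) had 37.2, 33.7, 57.2 and 18.6 CPM with shERH_1 in clones 52, 55, 57 and 67, against 44.1, 46.4, 73.7 and 29.5 with shERH_2. In clones 30, 34, 42 and 43 it had 27.3, 47.3, 45.9 and 39 CPM with shERH_1, against 54.8, 60.7, 54.2 and 49.5 with shERH_2. All 8 clones were higher with shERH_2, although the ranges across clones overlapped, and the log2 fold change was 0.46 ± 0.12 (SE, 95% interval 0.20 to 0.72, edgeR adjusted p = 0.404). The row mir-140, in an intron of WWP2 and known for its role in cartilage, was higher in all 8 clones by a narrow margin, with medians of 2539 and 2995 CPM and a log2 fold change of 0.26 ± 0.08 (SE). The row mir-627, in an intron of VPS39, was also higher in all 8 clones, with medians of 71.4 and 96.1 CPM and a log2 fold change of 0.35 ± 0.11 (SE). The row mir-548f had medians of 21.6 and 25.2 CPM and a log2 fold change of 0.54 ± 0.18 (SE), higher in 7 of 8 clones.

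**Figure D2:**
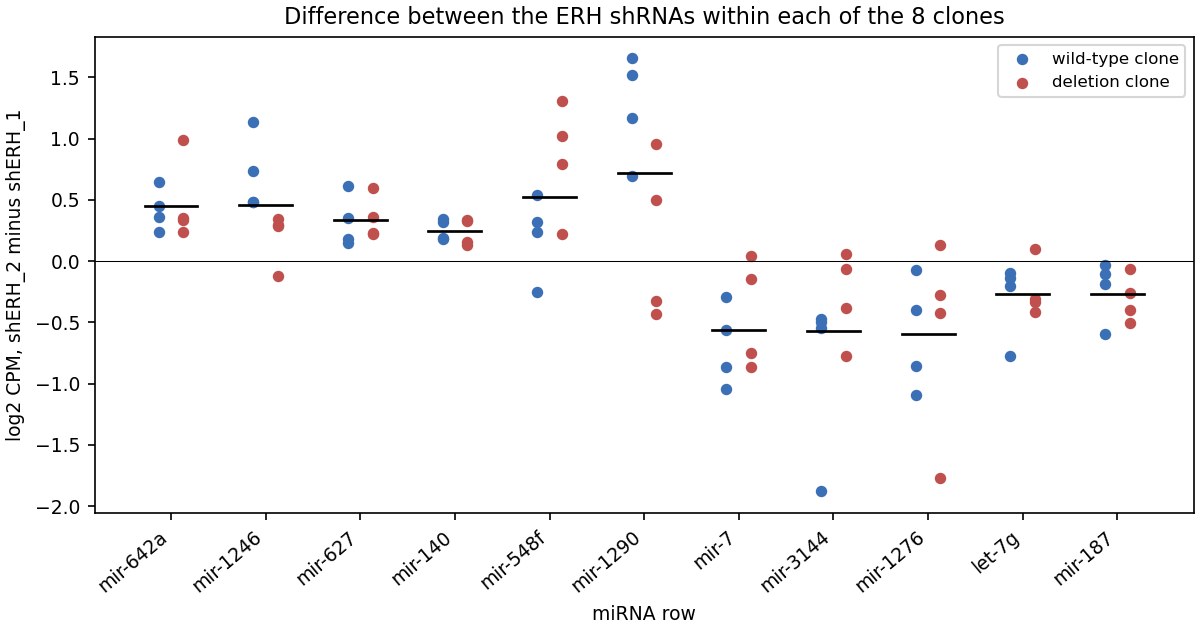
Difference in log2 CPM between shERH_2 and shERH_1 (vertical) for 11 miRNA rows (horizontal), 1 point per clone in blue for wild-type and red for deletion, with the mean of 8 clones as a black bar. All 8 points of mir-642a, mir-627 and mir-140 lie above 0 and all 8 of mir-187 below it, mir-7 has 1 point above 0, and the wild-type points of mir-1290 all lie above 0 while the deletion points fall on both sides.

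The row mir-1246 gave the only call when the knockdown effects of both shRNAs were set against each other. It lies on chromosome 2 from 176600980 to 176601052, outside annotated host genes, and sequence fragments of the U2 small nuclear RNA are known to be read as miR-1246. Its level with shERH_1 was 70.8, 207, 271 and 70.4 CPM in clones 52, 55, 57 and 67 and 75.8, 79.7, 89.6 and 158 CPM in clones 30, 34, 42 and 43. With shERH_2 it was 99.4, 345, 379.7 and 156 CPM and then 96.2, 97.5, 109.8 and 145 CPM. Every clone but 43 was higher with shERH_2, and the direct log2 fold change was 0.47 ± 0.13 (SE, edgeR adjusted p = 0.404). Against its own control mir-1246 fell with shERH_1 by 0.73 on the log2 scale (SE 0.15, edgeR adjusted p = 0.00144, lower in 8 of 8 clones), whereas with shERH_2 the log2 difference from control was 0.12 ± 0.17 (SE, edgeR adjusted p = 0.671).

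The difference between those knockdown effects, fitted over all 32 libraries, was 0.82 ± 0.18 for mir-1246 (SE, 95% interval 0.45 to 1.20, edgeR adjusted p = 0.0498), 1 call among 590 rows (0.169%) beside 44 rows at an unadjusted p under 0.05 (7.46%). The call was at the threshold: it was absent under spike-in scaling, total miRNA scaling, no filter and no clone block, and when any single clone other than 34 was left out, and present by DESeq2 and with a mean of at least 100 counts. Control levels of mir-1246 also differed, from 102 to 484 CPM with control_shRNA_1 and from 74.7 to 369 with control_shRNA_2, a log2 difference of -0.37 between the controls (edgeR adjusted p = 0.279). The interaction therefore adds a control difference of the opposite sign to the direct one.

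The row mir-1290 was not chosen by the rule, since only 6 of 8 clones had the same sign, and is given after its values were seen. Its level with shERH_1 was 20.2, 55, 16.3 and 7.71 CPM in clones 52, 55, 57 and 67, and with shERH_2 33.3, 125, 48.2 and 26 CPM. All 4 wild-type clones were higher with shERH_2. In the deletion clones 30, 34, 42 and 43 it was 17.1, 8.58, 23.5 and 16.7 CPM with shERH_1 and 24.6, 17.4, 18.7 and 12.1 CPM with shERH_2, higher in the first pair and lower in the last. The log2 fold change was 1.31 ± 0.22 in wild-type clones (SE, edgeR adjusted p = 0.0606) and 0.14 ± 0.29 in deletion clones (SE, edgeR adjusted p = 0.98), and the test of the difference between genotypes gave an adjusted p of 0.995 by edgeR.

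MiR-1290 and miR-1246 share a run of 12 bases, shown in capitals, which begins at base 3 of miR-1246 and at the first base of miR-1290, so that their seeds differ by this displacement. Reads carrying only the common run cannot be told apart, and how the authors assigned them is not given in the sources used here.
hsa-miR-1246: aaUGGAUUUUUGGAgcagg
hsa-miR-1290: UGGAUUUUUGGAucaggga

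Split by genotype, the ERH shRNAs again gave no call by edgeR. In the wild-type clones 0 of 530 rows passed (0%), with 22 at an unadjusted p under 0.05 (4.15%), and DESeq2 called 3, mir-1290, mir-1246 and mir-7. In the deletion clones 0 of 541 passed (0%), with 17 at an unadjusted p under 0.05 (3.14%), and DESeq2 also called 0. The test of whether the shERH_2 to shERH_1 difference itself depended on genotype called 0 of 578 rows (0%), with 10 at an unadjusted p under 0.05 (1.73%) and 0 by DESeq2. For mir-7 the difference was -0.67 ± 0.16 (SE) in wild-type and -0.46 ± 0.18 (SE) in deletion clones.

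Each ERH shRNA, set against its own control, changed many miRNAs. With shERH_1, 94 of 586 rows were higher (16%) and 72 lower (12.3%) by edgeR at an adjusted p under 0.05, 28.3% in all. With shERH_2, 77 of 582 were higher (13.2%) and 40 lower (6.87%), 20.1% in all. All 8 clones had 1 sign for 107 rows with shERH_1 (18.3%) and 80 with shERH_2 (13.7%). Directions are relative to the TMM scale, since spike-in scaling moved the median log2 fold change of all rows from 0.12 to 0.65 with shERH_1 and from 0.07 to 0.34 with shERH_2. The split then became 235 higher and 19 lower with shERH_1, and 86 higher and 15 lower with shERH_2. Total miRNA scaling gave 171 higher and 35 lower with shERH_1 and 124 higher and 26 lower with shERH_2. Which libraries entered also mattered, as shERH_1 gave 100 calls without clone 52, and shERH_2 gave 55 without clone 55 and 54 without clone 57, whose shERH_2 library was the deepest.

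Of 559 rows tested with both shRNAs, 83 were called with both, 49 higher and 34 lower, and 0 in opposite directions. These were 50.3% of the 165 calls of shERH_1 and 70.9% of the 117 calls of shERH_2. Related rows are among them, so the 83 are not all separate changes. The near-identical rows mir-365a and mir-365b may hold the same reads, as may mir-1260a and mir-1260b. Several rows of the mir-320 and mir-548 families were also called with both. The comparisons had separate control libraries. A further 82 rows were called with shERH_1 only, of which 79 had the same sign with shERH_2, and 34 with shERH_2 only, of which 33 had the same sign with shERH_1. Passing with 1 shRNA and not the other does not show a difference, and none of these 116 rows passed the direct test. At an unadjusted p under 0.05 in the direct test stood 10 of the 82, 5 of the 34 and 4 of the 82 shared rows in that test, beside 6.4% of all rows, and the direct test uses the same ERH libraries. The 116 include mir-7 and mir-1246, described above. Over all 559 rows, 456 (81.6%) had the same sign with both. The number called with both fell to 37 without clone 55, 43 without clone 57 and 49 without clone 52.

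**Figure D3:**
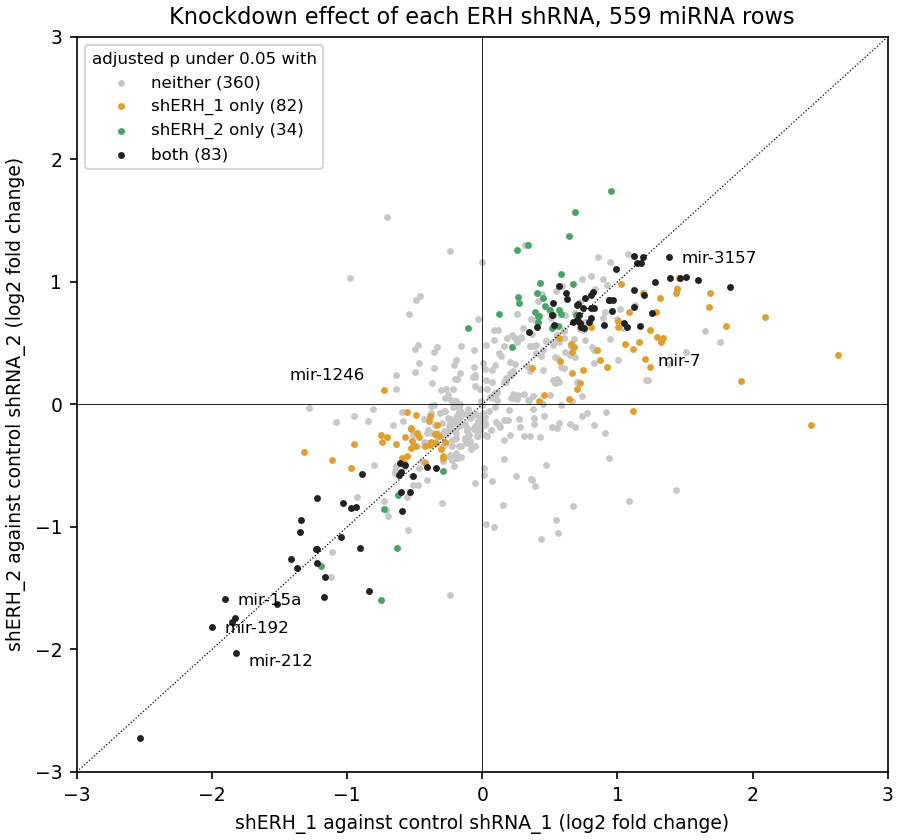
Log2 fold change of shERH_2 against control_shRNA_2 (vertical) against that of shERH_1 against control_shRNA_1 (horizontal) for 559 miRNA rows, coloured by which comparison had an adjusted p under 0.05, with the line of equal change dotted. The 83 rows called with both (black) all lie in the lower left or upper right quadrant, and mir-1246 is an orange point at -0.73 with shERH_1 and 0.12 with shERH_2.

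The exceptions in sign were 4 rows, named here because there were so few. The row mir-1246 had log2 fold changes of -0.73 with shERH_1 and 0.12 with shERH_2. The row mir-3943 had 1.12 and -0.06, and mir-5698 had 2.43 and -0.17. The row mir-4778 had -0.11 with shERH_1 and 0.62 with shERH_2. For mir-5698 the controls differed: its level was 1.32 to 11.1 CPM with shERH_1 and 0.938 to 11.1 with shERH_2, but 0 to 4.45 with control_shRNA_1, at 0 in 4 of 8 clones, and 0.922 to 11.2 with control_shRNA_2. Set against control_shRNA_1 instead, shERH_2 gave mir-5698 a log2 fold change of 2.15, so the sign of its change followed the control chosen.

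Among the shared changes on the lower side, those ranked first by the smaller of both fold changes, among rows averaging at least 10 CPM, were mir-192, mir-212, mir-7974, mir-15a, mir-449c and mir-217. mir-192, exonic in MIR194-2HG (chromosome 11, 64891137 to 64891246) and a p53-linked miRNA abundant in kidney and gut epithelium, fell with both. With shERH_1 it had 627, 1037, 691 and 1040.3 CPM in clones 52, 55, 57 and 67, and with shERH_2 484, 1016, 844 and 1649 CPM. In clones 30, 34, 42 and 43 it had 1116, 518, 496 and 375 CPM with shERH_1 and 993, 509, 644 and 456 CPM with shERH_2. The control libraries ran from 1279 to 4881 CPM, and in every clone both ERH libraries were below both control libraries. The log2 fold change of mir-192 was -1.998 ± 0.11 with shERH_1 (SE, edgeR adjusted p = 6.19e-10) and -1.81 ± 0.18 with shERH_2 (SE, edgeR adjusted p = 7.67e-08), and the direct difference was 0.14 with a 95% interval of -0.10 to 0.38.

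The row mir-15a (chromosome 13, 50049119 to 50049201, on the DLEU2 transcript) is the classic helper-dependent hairpin beside mir-16. It had 597 to 1177 CPM with shERH_1 and 469 to 1273 CPM with shERH_2, and 1644 to 4221 CPM in the controls, so the ERH and control ranges did not overlap. Its log2 fold changes were -1.90 ± 0.16 with shERH_1 and -1.59 ± 0.19 with shERH_2 (SE), both lower in 8 of 8 clones, and the direct difference was 0.05 with a 95% interval of -0.24 to 0.34. The row mir-212 (chromosome 17, 2050271 to 2050380) was far less abundant, at 2.31 to 8.8 CPM with shERH_1 and 2.38 to 9.38 CPM with shERH_2. Its log2 fold changes were -1.82 ± 0.32 and -2.03 ± 0.31 (SE), and its direct difference of 0.03 had an interval of -0.76 to 0.83, too wide to bound a difference of 1.5-fold. Clone 52 had the smallest drop of mir-212 with shERH_2, -0.48, against -1.83 in the next clone. Its seed relative mir-132, from the same locus, had log2 differences of -0.02 with shERH_1 and -0.20 with shERH_2, neither called.

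The rows mir-7974, mir-449c and mir-217 had log2 fold changes of -1.85, -1.52 and -1.37 with shERH_1, and -1.78, -1.63 and -1.34 with shERH_2. The row mir-449c lies in an intron of CDC20B with mir-449a, which had log2 differences of -0.35 and -0.17 and was not called with either. The largest fall in both comparisons was that of mir-4421, at -2.53 and -2.72, which averaged under 10 CPM and was named after its values were seen.

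On the higher side, the shared changes ranked first among rows averaging at least 10 CPM were mir-3157, mir-580, mir-4504, mir-3176, mir-1285 and mir-1255b. The row mir-3157 (intronic in ENTPD1-AS1, chromosome 10, 96064315 to 96064399) had 121, 88.8, 108 and 148 CPM with shERH_1 in clones 52, 55, 57 and 67, and 135, 93.5, 122 and 186 with shERH_2. In clones 30, 34, 42 and 43 it had 118, 172, 121 and 258 CPM with shERH_1 and 143, 173, 129 and 250.1 with shERH_2. Controls ran from 26.4 to 57.8 CPM in wild-type and 55.6 to 154 in deletion clones, and every ERH library was above both controls of its clone. Its log2 fold changes were 1.38 ± 0.19 with shERH_1 and 1.20 ± 0.20 with shERH_2 (SE), with a direct difference of 0.14 and an interval of -0.07 to 0.35. The row mir-580, in an intron of LMBRD2, had 1.19 and 1.20, and the libraries with shERH_1 and shERH_2 spanned 52.8 to 117 and 31.4 to 129 CPM. The row mir-3176, in an intron of CAPN15, had 1.46 and 1.03. The rows mir-4504, mir-1285 and mir-1255b had log2 fold changes of 1.503, 1.59 and 1.28 with shERH_1 and 1.04, 1.01 and 1.00 with shERH_2.

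**Figure D4:**
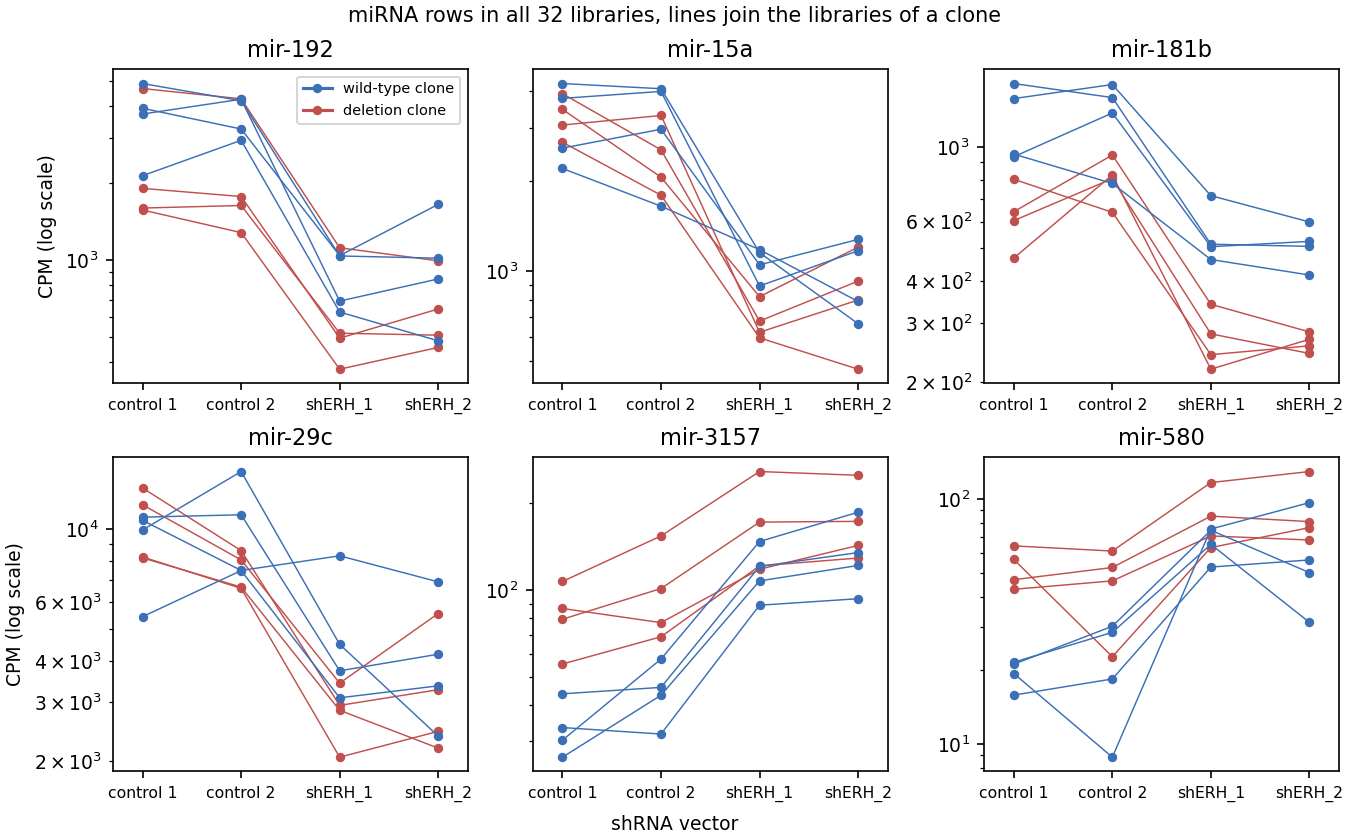
CPM (vertical, log scale) of 6 miRNA rows in all 32 libraries, by shRNA vector (horizontal), with lines joining the 4 libraries of a clone, blue for wild-type and red for deletion clones. For mir-192 and mir-15a both ERH libraries lie below both control libraries in every clone, and for mir-3157 above them.

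Across the 83 rows called with both, the change was larger in size with shERH_1 for 49 and with shERH_2 for 34, and the median size was 0.94 and 0.85 on the log2 scale. Of the 82 that were also in the direct test, the 95% interval of the difference lay within 2-fold for 81 (98.8%, beside 76.8% of all rows). It lay within 1.5-fold for 67 (81.7%, beside 51.2% of all rows). Passing both knockdown tests favours rows of smaller standard error, here a median of 0.14 beside 0.18 over all rows. It also favours rows with similar changes, and the direct test uses the same ERH libraries as both knockdown comparisons. These shares and the direct differences of the named shared rows are therefore not separate evidence of agreement.

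Transcripts with a poor hairpin beside a good one, the kind ERH is known to assist, were followed through a list of 9 rows. The list includes the good partners mir-16, mir-144 and mir-181a. Like all lists here, it was chosen with earlier results of these data known, so list counts are given as descriptions. With shERH_1, 5 of 9 fell and 0 rose, with shERH_2, 6 of 9 fell and 0 rose, and 5 fell with both, against 12.3% and 6.87% lower calls over all rows. The list's median log2 fold change was -0.91 and -0.82, beside 0.12 and 0.07 over all rows. In the direct test, which called 0 of all 578 rows, 0 of 9 had an unadjusted p under 0.05 (6.4% of all rows). The list's direct median was -0.03 beside -0.01 over all rows. The rows that fell with both were mir-15a, mir-15b, mir-181b, mir-181c and mir-181d. The mir-181a row merges loci on chromosomes 1 and 9. Which hairpins lie beside mir-181c and mir-181d was not examined, so mir-181a is not shown to be their partner. The row mir-181b had 219 to 717 CPM with shERH_1 and 243 to 599 CPM with shERH_2, at log2 fold changes of -1.16 and -1.41, and a direct difference of -0.05 (95% interval -0.25 to 0.15). The row mir-181c had -0.53 and -0.72, and its shERH_1 value was 0.0011 under spike-in scaling. The row mir-451a, a hairpin that depends on its neighbour mir-144, averaged only 9.4 CPM over all 32 libraries. It fell with shERH_2 (-1.32 ± 0.36, SE, edgeR adjusted p = 0.0123) and had -1.19 ± 0.51 with shERH_1 (SE, edgeR adjusted p = 0.0857). Its direct difference of -0.16 had a wide 95% interval, -1.18 to 0.86. The good partners mir-16 and mir-181a had log2 differences between -0.25 and -0.19 and were not called with either shRNA. Nor was mir-144, the partner of mir-451a, which averaged 5.9 CPM and had 0.15 with shERH_1 and -0.82 with shERH_2. The direct difference of mir-144 was -0.60, with a 95% interval of -1.58 to 0.39.

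Ratios within a library, which do not depend on scaling, were taken for the mir-15 pairs. The mir-16 row merges MIR16-1, beside mir-15a on chromosome 13, and MIR16-2, beside mir-15b on chromosome 3. Both ratios therefore share 1 denominator, and neither sets a hairpin against its own neighbour alone. Relative to mir-16, mir-15a stood at a log2 ratio of -7.57 ± 0.32 with shERH_1 and -7.53 ± 0.44 with shERH_2 (SD, n = 8), a difference of 0.04 ± 0.49 (SD), higher in 5 of 8 clones (exact sign-flip permutation test, two-sided, p = 0.828). Control libraries ran from -6.87 to -5.36 and ERH libraries from -8.28 to -7.14, so they did not overlap. Relative to mir-16, mir-15b stood at -5.62 ± 0.24 and -5.54 ± 0.50 (SD, n = 8), a difference of 0.07 ± 0.52 (SD), higher in 4 of 8 clones (sign-flip test, exact p = 0.695). Control libraries ran from -5.56 to -3.85 and ERH libraries from -5.98 to -4.46, so for this pair they overlapped. The largest single difference, 0.97 for mir-15b, was in clone 52.

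The list of p53-linked and cell-cycle rows (the mir-192, mir-34 and mir-449 groups) had 5 of 9 lower with shERH_1 (12.3% of all rows). With shERH_2 2 of its 9 rows were lower (6.87% of all rows), and the direct test called 0 of 9 (0% of all rows). Its direct median was 0.16, and 3 of its rows, mir-34a, mir-34b and mir-34c, had an unadjusted p under 0.05 (6.4% of all rows), all higher with shERH_2. The mir-34 family is induced by p53 and restrains the cell cycle; the large T antigen made by 293T cells binds p53. The row mir-34a had 3784, 3468, 2299.5 and 4763 CPM with shERH_1 in clones 52, 55, 57 and 67, and 2823, 3696, 2812 and 5136 with shERH_2. In clones 30, 34, 42 and 43 it had 3015, 145, 1254 and 1747 CPM with shERH_1 and 3717, 161, 2351 and 2828 with shERH_2. Clone 34 was low under all 4 shRNAs, at 145 to 174 CPM, and only clone 52 was lower with shERH_2. Direct log2 fold changes were 0.28 ± 0.12 for mir-34a, 0.67 ± 0.30 for mir-34b and 0.52 ± 0.17 for mir-34c (SE), with adjusted p of 0.624, 0.683 and 0.404 by edgeR. In wild-type and deletion clones they were 0.03 ± 0.15 and 0.49 ± 0.17 for mir-34a, and 0.34 ± 0.23 and 0.69 ± 0.28 for mir-34c (SE). For mir-34b, which averaged only 5.6 CPM, they were 0.44 ± 0.45 and 0.94 ± 0.50 (SE). The edgeR test of the difference between genotypes gave an adjusted p of 0.995 for each. Against its own control mir-34a fell with shERH_1 by 0.74 on the log2 scale (edgeR adjusted p = 4.62e-04), and with shERH_2 its log2 difference was -0.31 (edgeR adjusted p = 0.225). The row mir-194, also in this list, had -0.52 with shERH_1 and 0.0096 under spike-in scaling.

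Since the direct test called 0 of all 578 rows, its 0 calls in each of the other families are no result about that family. Their counts of lower calls are set against 12.3% of all rows with shERH_1 and 6.87% with shERH_2. These shares include the scarce rows, where precision was low, and no list was matched to them by abundance. In the mir-30 family 4 of 5 rows fell with shERH_1 and 0 of 5 with shERH_2. The log2 differences with shERH_1 and shERH_2 were -0.48 and -0.23 for mir-30b, -0.52 and -0.30 for mir-30c, -0.38 and -0.31 for mir-30e, and -0.34 and -0.32 for mir-30a. The 4 rows that fell, mir-30a, mir-30b, mir-30c and mir-30e, had values between 0.014 and 0.19 under spike-in scaling. In the direct test 0 of 5 were called, and mir-30b had an unadjusted p under 0.05, at 0.22 ± 0.10 (SE). In the oncogenic cluster from mir-17 to mir-92a, 3 of 6 rows fell with shERH_1 and 1 of 6 with shERH_2, beside the same 12.3% and 6.87%. The row that fell with both was mir-19a, at -1.35 and -1.04, and the direct differences in the cluster ran from -0.15 to 0.03.

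The let-7 family had 2 of 9 rows lower with each shRNA (12.3% and 6.87% of all rows), the same pair let-7g and mir-98, and 0 of 9 in the direct test. The row mir-98 had log2 fold changes of -0.59 and -0.87, and let-7g had -0.34 and -0.52, with 0.19 for shERH_1 under spike-in scaling. All 9 direct estimates in the family were below 0, from -0.33 to -0.0012, let-7e turning to 0.0022 under total miRNA scaling. Their median was -0.12 beside -0.01 over all rows. Of the 9, 2 had an unadjusted p under 0.05 (6.4% of all rows), let-7g and mir-98. Rows of a family are not independent, so the shared sign was not tested. Of the HOX-embedded rows, 2 of 5 fell with shERH_1 (12.3% of all rows) and 1 of 5, mir-10b, with shERH_2 (6.87%), and 0 of 5 in the direct test; mir-10a and mir-10b had 0.23 and 0.13 for shERH_1 under spike-in scaling. Of the mir-21, mir-210, mir-22 and mir-29 rows, 4 of 6 fell with shERH_1 (12.3% of all rows) and 2 of 6, mir-29a and mir-29c, with shERH_2 (6.87%). The row mir-29c had 2051 to 8292 CPM with shERH_1 and 2184 to 6923 CPM with shERH_2, and a direct difference of -0.01 (95% interval -0.28 to 0.26). In the mir-106b and mir-106a clusters, 1 of 6 tested rows, mir-18b, fell with shERH_1 and 0 with shERH_2, and in the mir-424 cluster 1 of 5, mir-424, and 0 of 5. The interferon and inflammation rows mir-155, mir-146a, mir-146b and mir-223 had 0 of 4 called with either shRNA, beside 28.3% and 20.1% of all rows. In the direct test 1 of 4, mir-146a, had an unadjusted p under 0.05 (6.4% of all rows), at 0.33 ± 0.15 (SE, edgeR adjusted p = 0.683).

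Hairpins that reach maturity without the Microprocessor serve as a contrast group, and 4 of the 12 listed passed the filter on low counts. With shERH_1 1 of 4 rose (16% of all rows), mir-877 at 0.64 (edgeR adjusted p = 0.0474), and with shERH_2 0 of 4 (13.2% of all rows). The list holds mir-320a but not its relatives mir-320b, mir-320c and mir-320d, named after their values were seen, which rose with both shRNAs, at 0.71, 0.73 and 0.81 with shERH_1 and 0.68, 0.63 and 0.78 with shERH_2. In the direct test 0 of 4 were called (0% of all rows), and 1 of 4, mir-1226, had an unadjusted p under 0.05 (6.4% of all rows). All 4 estimates lay below 0, from -0.36 to -0.11, with a median of -0.22 beside -0.01 over all rows. The shared sign was not tested.

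The DGCR8 transcript carries the hairpins mir-1306 and mir-3618, which the Microprocessor cuts out of the messenger RNA of its own subunit. The row mir-1306 fell with both, at -0.84 ± 0.18 with shERH_1 and -1.52 ± 0.22 with shERH_2 (SE). Its level was 47.4, 24, 34.3 and 60.3 CPM with shERH_1 in clones 52, 55, 57 and 67 and 31.4, 44.1, 25.2 and 48 with shERH_2, and 11.6 to 24.7 and 10.1 to 12.5 CPM in the deletion clones. The direct difference was -0.26, with a 95% interval of -0.65 to 0.12. The controls of mir-1306 differed too, by 0.43 for control_shRNA_2 against control_shRNA_1 (edgeR adjusted p = 0.295). The difference between its knockdown effects, -0.70 ± 0.24 (SE, edgeR adjusted p = 0.468), includes that control difference. The row mir-3618 had 0.55 with shERH_1 and -0.20 with shERH_2, neither called, and a direct difference of -0.42 ± 0.20 (SE).

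Total miRNA content, as the log2 ratio of miRNA to spike-in counts, was 7.26 ± 0.35 with shERH_1 and 7.14 ± 0.42 with shERH_2 (SD, n = 8). The difference was -0.12 ± 0.49 (SD), higher with shERH_2 in 3 of 8 clones (sign-flip test, exact p = 0.508). It ran from -0.75 in clone 52 to 0.61 in clone 43. Less miRNA per cell and a change in other RNA cannot be told apart, since a set amount of total RNA received the spike-ins.

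The overall distance between libraries was summarised per clone as the root mean square (RMS) log2 difference over 258 rows averaging at least 100 counts. It was 0.41 ± 0.12 between the ERH shRNAs and 0.44 ± 0.11 between the control shRNAs (SD, n = 8), a difference of -0.03 ± 0.14 (SD; sign-flip test, exact p = 0.516). Against its own control it was 0.73 ± 0.10 for shERH_1 and 0.74 ± 0.19 for shERH_2 (SD, n = 8), a difference of 0.01 ± 0.13 (SD), larger with shERH_2 in 3 of 8 clones (sign-flip test, exact p = 0.789). With the controls exchanged this difference became 0.07 (sign-flip test, exact p = 0.0391). The smallest p that 256 sign flips allow is 0.00781, and after adjustment over these 5 ratio and distance tests all 5 adjusted p-values were 0.828. None of the 5 passed the test between genotypes (exact permutation p between 0.257 and 0.714 over 70 arrangements, of which the smallest possible is 0.0286).

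Differences between the ERH shRNAs had little in common from clone to clone. Over 258 rows and 28 pairs of clones, the median Pearson correlation of the shERH_2 minus shERH_1 differences was 0.06, ranging from -0.63 to 0.53, and that of the control differences was 0.03, from -0.49 to 0.61. Over the 121 rows averaging at least 1000 counts these medians were 0.17 and -0.0080. For the change of shERH_1 against its control the median was 0.60 (0.11 to 0.85), and for shERH_2 it was 0.48 (-0.02 to 0.73). Among pairs of clones of the same genotype these medians were 0.73 and 0.41, and among pairs of unlike genotype 0.47 and 0.51. The knockdown effects were fitted over both genotypes together, and their dependence on genotype was not tested. These are correlations across miRNAs, which are not independent, and pairs of clones share libraries, so they are given as descriptions.

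Within a clone, the changes with both ERH shRNAs against their own controls correlated across the 258 rows at 0.59, 0.84, 0.77 and 0.68 in clones 52, 55, 57 and 67, and at 0.33, 0.56, -0.07 and 0.62 in clones 30, 34, 42 and 43. With the controls exchanged the value in clone 42 was 0.52, and over all clones it ran from 0.45 to 0.88. Clone 42 was also the clone with the largest distance between its control libraries (RMS 0.62) and the one in which mir-7 was not lower with shERH_2.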

How the data were processed

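The deposited table holds read counts of precursors, per the file headers, as whole numbers for 1513 miRNA rows and 4 spike-in rows in 32 libraries. SAMtools is named in the submitters' processing notes. The aligner, annotation, genome build and any use of molecular identifiers are not given in the sources used here, and amplification copies may be among the counts. Libraries were made with the QIAseq miRNA kit, per the labels' protocols.

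Counts were fitted with edgeR 4.0.16 in R 4.3.3 (glmQLFit and glmQLFTest, filterByExpr, TMM over miRNA rows, clone as a block), and Benjamini-Hochberg adjusted p under 0.05 was called. Each comparison was fitted on its own libraries, and the difference of knockdown effects on all 32. CPM values are TMM-scaled. A prior count of 2 was used for log2 CPM and 0.5 was added to counts in ratios. The scripts were tested on simulated data. Single values were tested by exact permutation, two-sided.

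The labels give each clone all 4 vectors, which pairs the libraries. The deviations of each clone's shERH_1 and shERH_2 libraries from their group means correlated at 0.49 to 0.81 over 258 rows. No library was a copy of another: the 48 pairs within groups gave a chi-square of at least 160 per degree of freedom.

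Members and lists were chosen with earlier results of these data known. Named rows were those called between the ERH shRNAs or, with fewer than 3 in a direction, the 5 of smallest p, averaging at least 10 CPM and of the same sign in at least 7 clones. To them came, per direction, the 6 shared rows averaging at least 10 CPM with the largest smaller fold change, and the listed families. RefSeq mature names matched 1385 rows. Positions are from RefSeq GRCh38.p14 and hosts from GENCODE release 29, and neither is stated to be the build behind the counts. Alternatives were DESeq2 1.42.0, spike-in or total scaling, filters (none, or 100 mean counts), wider fits, no block, crossed controls and leaving out each clone.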

Additional observations from a re-analysis of the deposited data

Results flagged for a closer look

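In 56 sets of values the highest and lowest values were compared with the rest of their set, and 5 stood apart by Dixon's test. Chance alone gives about 5% of sets. The shERH_1 library of clone 67 held 4324633 miRNA counts, beside 2464819 in the next wild-type clone, and the shERH_2 library of clone 57 held 6222790, beside 1782947. With control_shRNA_1 the log2 ratio of miRNA to spike-in counts was 7.78 in clone 30 and at most 6.92 in the other deletion clones. Between the ERH shRNAs mir-3144 had a log2 difference of -1.88 in clone 67 and -0.78 in the next clone. With shERH_2 against control_shRNA_2 mir-212 had -0.48 in clone 52, and -1.83 or lower in the others.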

How the results depend on the processing

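Between the ERH shRNAs edgeR called 0 rows, and the alternatives gave 1 by DESeq2, 1 with total miRNA scaling and 3 with no filter (mir-7, mir-3144 and mir-1290), and 0 to 1 when each clone was left out in turn (1 without clone 42). None of the 10 rows named for that comparison changed sign under any alternative. In wild-type clones the count of 0 became 3 by DESeq2, 1 with total miRNA scaling, 4 with no filter and 0 to 2 without each clone. Between the controls it became 1 by DESeq2, 1 with a mean of at least 100 counts and 2 in the fit over all 32 libraries. For the difference of knockdown effects the count of 1 became 2 by DESeq2, 0 with spike-in scaling, 0 with total miRNA scaling and 0 to 2 without each clone; with no filter the 1 call was mir-7. The pairing by clone mattered for the knockdown counts. Without the replicate block shERH_1 gave 106 calls in place of 166, shERH_2 43 in place of 117, both together 34 in place of 83, and the difference of effects 0, while the count between the ERH shRNAs stayed at 0. Leaving out each clone gave 100 to 183 calls for shERH_1, 54 to 117 for shERH_2 and 37 to 80 for both. Spike-in scaling gave 254 for shERH_1, and a mean of at least 100 counts gave 71 for shERH_2. With crossed controls the difference in RMS knockdown size was 0.071 (exact sign-flip permutation p = 0.0391). Under spike-in scaling 18 named rows that were called before or after changed sign for shERH_1 against its control: let-7b 0.44, let-7g 0.19, mir-106b 0.41, mir-10a 0.23, mir-10b 0.13, mir-132 0.52, mir-146b 0.50, mir-17 0.20, mir-181c 0.0011, mir-187 0.50, mir-194 0.0096, mir-196a 0.53, mir-30a 0.19, mir-30b 0.052, mir-30c 0.014, mir-30d 0.53, mir-30e 0.16 and mir-424 0.0012. With the crossed control mir-5698 reversed for shERH_2, to 2.15. The causes were not tested. Precision was lowest below 10 CPM, where 67 of 194 rows were bounded within 2-fold. Intervals cover counting error and the spread of within-clone differences from clone to clone, and not a bias shared by all libraries of a vector. Each shRNA was 1 vector, so vector and target effects cannot be told apart beyond what both share.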
